A study of Drosophila melanogaster with 3 samples.

Results

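The nuclear genes for subunits of the respiratory chain and ATP synthase were taken as the protein-coding genes whose symbol in the Ensembl BDGP6 annotation starts with ND-, UQCR-, COX or ATPsyn. The rule found 80 genes among the 13945 protein-coding genes of the 6 chromosome arms used. Of these, 59 are called subunit genes here, 34 of complex I, 6 of complex III, 8 of complex IV and 11 of complex V. The other 21 carry the symbol of a subunit followed by L, or by L and a digit, and are called duplicates here (6, 3, 8 and 4 for the same complexes). The assay was chromatin immunoprecipitation followed by sequencing (ChIP-seq), and its target was Nerfin-1, a DNA-binding zinc-finger protein of developing neurons. All samples were Drosophila melanogaster embryos of mixed sex, 4 to 16 h old, from a transgenic line whose Nerfin-1 ends in green fluorescent protein (GFP). Chromatin was precipitated through the tag in 3 biological replicates, which form the only group, so no genotype, treatment or time is compared. The age is that of the sample source label, since a separate age label gives an hour value far beyond embryonic life. The labels do not say which promoter drives the fusion or whether the line still has its own nerfin-1. Whole embryos were used, so stronger binding in a few cells and weaker binding in many cannot be told apart.

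The inner mitochondrial membrane holds the respiratory chain. Complex I takes electrons from NADH, complex III passes them from ubiquinone to cytochrome c, and complex IV hands them to oxygen. The protons that these complexes pump drive ATP synthase, also called complex V. Most subunits are made from nuclear genes and must be imported, the rest come from the mitochondrial genome. In Drosophila many nuclear subunit genes have duplicates that are known mostly for expression in the testis.

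The start regions of 8 genes show the sequence at or beside the summits, the positions of strongest signal within a peak. The stretches of 6 genes contain their summit, while the summit of ND-30 lies upstream of its printed stretch and that of COX6B lies 23 bp downstream of its TSS, past the end. Each sequence runs on the strand of its gene from up to 150 bases before the transcription start site (TSS) to 20 bases after it, shortened where an exon of another gene begins, and was read from the RefSeq release 6 genome with dm6 coordinates. ND-42 and ND-51 had the strongest promoter summits of complex I, COX6B and COX7B the strongest of complex IV, and ND-30 the weakest of the subunit genes. COX7A carried the only DRE word at a member summit. UQCR-C1 and ATPsynO were chosen after their values were seen, so that complexes III and V are shown. Capitals mark the DRE word TATCGATA in COX7A and the Motif 1 core GGTCACAC in COX7B, and the other 6 hold neither word.
ND-42 (chr3R:22027559-22027728, + strand, TSS 22027709, summit 22027635): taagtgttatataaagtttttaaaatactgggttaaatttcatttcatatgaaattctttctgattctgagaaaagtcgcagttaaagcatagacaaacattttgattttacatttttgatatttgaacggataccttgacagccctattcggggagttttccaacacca
ND-51 (chr2L:6062738-6062907, - strand, TSS 6062757, summit 6062856): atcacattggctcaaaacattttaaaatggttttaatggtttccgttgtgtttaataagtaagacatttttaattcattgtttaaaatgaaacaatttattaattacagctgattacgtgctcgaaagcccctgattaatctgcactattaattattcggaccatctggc
ND-30 (chr3L:3159559-3159728, - strand, TSS 3159578, summit 3159769): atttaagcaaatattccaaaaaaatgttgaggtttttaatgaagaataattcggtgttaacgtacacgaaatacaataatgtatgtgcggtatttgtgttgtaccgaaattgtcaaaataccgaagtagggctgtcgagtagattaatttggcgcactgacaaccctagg
UQCR-C1 (chr3R:14890206-14890250, + strand, TSS 14890231, summit 14890245): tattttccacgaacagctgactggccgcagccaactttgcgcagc
COX6B (chrX:19744316-19744430, - strand, TSS 19744335, summit 19744312): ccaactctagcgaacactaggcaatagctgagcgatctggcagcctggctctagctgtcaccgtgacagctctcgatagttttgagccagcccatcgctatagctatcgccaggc
COX7B (chr3L:17425327-17425496, + strand, TSS 17425477, summit 17425420): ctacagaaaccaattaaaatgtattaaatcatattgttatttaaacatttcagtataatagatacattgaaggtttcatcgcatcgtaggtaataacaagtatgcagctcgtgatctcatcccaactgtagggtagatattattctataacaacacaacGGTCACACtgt
COX7A (chr3R:8341024-8341099, - strand, TSS 8341043, summit 8341063): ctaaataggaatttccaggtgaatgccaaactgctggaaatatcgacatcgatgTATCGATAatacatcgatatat
ATPsynO (chr3R:15265441-15265610, + strand, TSS 15265591, summit 15265585): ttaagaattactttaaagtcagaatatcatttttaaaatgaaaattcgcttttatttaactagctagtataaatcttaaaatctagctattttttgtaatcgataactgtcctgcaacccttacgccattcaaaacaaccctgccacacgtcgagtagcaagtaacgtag

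The subunit genes carried weak summits close to their start sites, and the duplicates rarely did. Each summit was given to a single gene, the one whose TSS was nearest among protein-coding genes, and a summit within 500 bp of that TSS was a promoter summit. Where a gene has several start sites, distances are from the one nearest to the summit. The submitters deposited a list of 7056 peaks thresholded by IDR, a measure of how far replicates differ in their order of peaks, a pooled list and 3 replicate lists of 30000 peaks each. In the IDR list, 21 of 80 members had a promoter summit (26.2%), against 20.3% of all protein-coding genes. They comprised 20 of 59 subunit genes (33.9%) and 1 of 21 duplicates (4.76%). With summits at any distance, 28 of 80 members had one (35.0%), near the 28.6% of all genes, with 22 subunit genes (37.3%) and 6 duplicates (28.6%). These counts rest on all 3 replicates. When 1 replicate was left out and an IDR summit had to recur, no more than 100 bp away, in the 7056 strongest peaks of each of the other two, the subunit genes with a promoter summit fell from 20 to 9 without replicate 1, to 7 without replicate 2 and to 11 without replicate 3. Those are 15.3%, 11.9% and 18.6% of them, where all genes had 12.1%, 13.9% and 12.6%, so without replicate 2 the subunit share was below that of all genes. At any distance 15, 13 and 17 members were left (18.8%, 16.2% and 21.2%), against 18.5%, 20.8% and 19.3% of all genes, 3, 4 and 3 of them duplicates. In the pooled list, whose strongest 7056 peaks are the IDR list, promoter summits stood at 44 subunit genes (74.6%) and 3 duplicates (14.3%), against 41.1% of all genes. Without replicates 1, 2 and 3 in turn, pooled promoter summits matched in the full lists of both others stood at 52.5%, 57.6% and 52.5% of subunit genes and 27.3%, 30.1% and 28.5% of all genes. A pooled summit at any distance was found at 54 members (67.5%), against 51.8% of all genes, with 76.3% of subunit genes and 42.9% of duplicates. No file measures expression, so how many of the background genes are active in these embryos, and its part in these shares, was not tested.

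**Figure D1:**
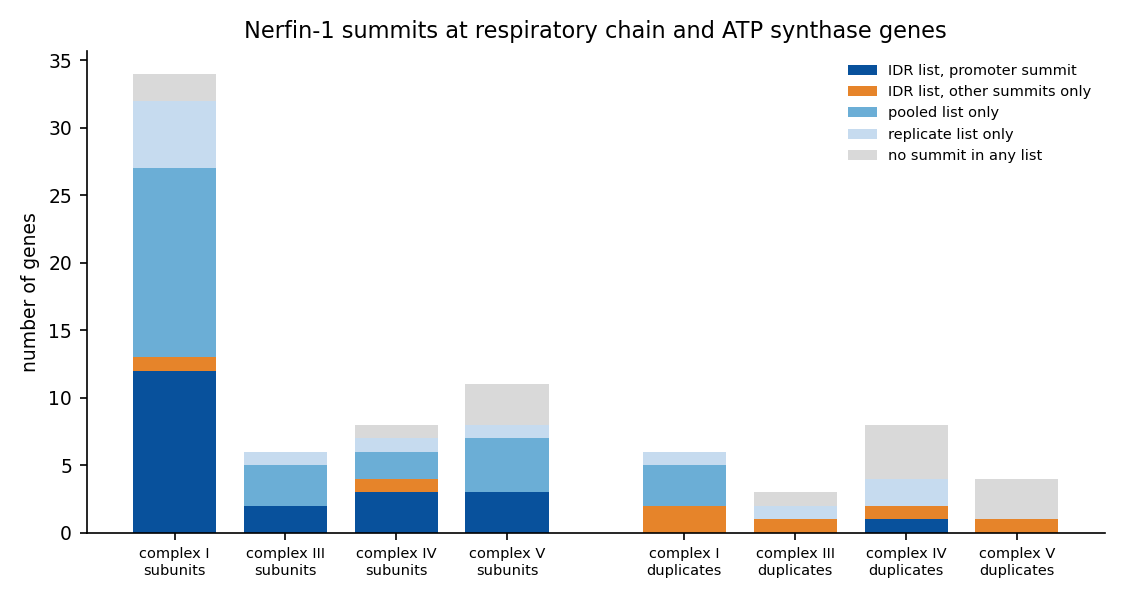
Members by complex, subunit genes and duplicates apart. Bars count genes by the best summit they had in the peak lists, from an IDR promoter summit to no summit in any list. IDR promoter summits stood at 20 subunit genes and at 1 duplicate.

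The 4 complexes each had subunit genes with an IDR promoter summit. They were 12 of 34 genes of complex I, 2 of 6 of complex III, 3 of 8 of complex IV and 3 of 11 of complex V. No list held a summit nearest to 14 members (17.5%), against 33.1% of all genes. Among these were 6 subunit genes (10.2%), which were ND-49, ND-MLRQ, COX8, ATPsynCF6, ATPsynE and ATPsynbeta. ATPsynbeta makes the catalytic subunit of ATP synthase, and ND-49 makes a core subunit of complex I. The other 8 were duplicates (38.1%), namely UQCR-11L, COX5BL, COX6AL2, COX6CL, COX7AL, ATPsynGL, ATPsynbetaL and ATPsynepsilonL.

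Nearest-TSS assignment also moved summits to neighbours. IDR summits lay within 500 bp of the TSS of 4 more subunit genes but closer to another gene. These were COX5A, 96 bp from a summit given to glo, ATPsynCF6, 160 bp from one given to Sec13, ND-MWFE, 167 bp from one given to TppII, and ATPsynE, 234 bp from one given to Afti. Counted this way, 24 of 59 subunit genes (40.7%) and 1 of 21 duplicates (4.76%) had an IDR summit within 500 bp, against 27.1% of all genes. COX6B shares its TSS position with CG18809, and ND-MNLL shares its own with CG45089, so those summits belong equally to either gene.

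The replicates were compared at equal length, as the 7056 strongest peaks of each. Promoter summits were found at 18, 19 and 14 subunit genes in replicates 1, 2 and 3, or 28.8% ± 4.48 (SD, n = 3), against 19.6%, 21.3% and 19.6% of all genes. Every replicate's share of subunit genes lay above its share of all genes. The duplicates with a promoter summit numbered 0, 3 and 0, and those of replicate 2 were COX7AL2, COX4L and UQCR-6.4L at ranks 4749, 4974 and 6797, the first 499 bp from its TSS. With summits at any distance, the replicates held 24, 27 and 23 members (30.0%, 33.8% and 28.8%), or 30.8% ± 2.6 (SD, n = 3), against 27.2%, 30.3% and 26.9% of all genes.

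Few of these genes were among the strongest peaks of every replicate. A promoter summit in all 3 stood at 5 subunit genes (8.47%) and 0 duplicates, below the 11.8% of all genes, and a summit at any distance at 12 members (15.0%), below the 19.0% of all genes. In the full lists the order turned. Promoter summits were found at 46, 39 and 45 subunit genes, or 73.4% ± 6.42 (SD, n = 3), against 42.2%, 42.1% and 42.1% of all genes. In all 3 full lists they were found at 32 subunit genes (54.2%) and 1 duplicate (4.76%), against 30.8% of all genes.

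**Figure D2:**
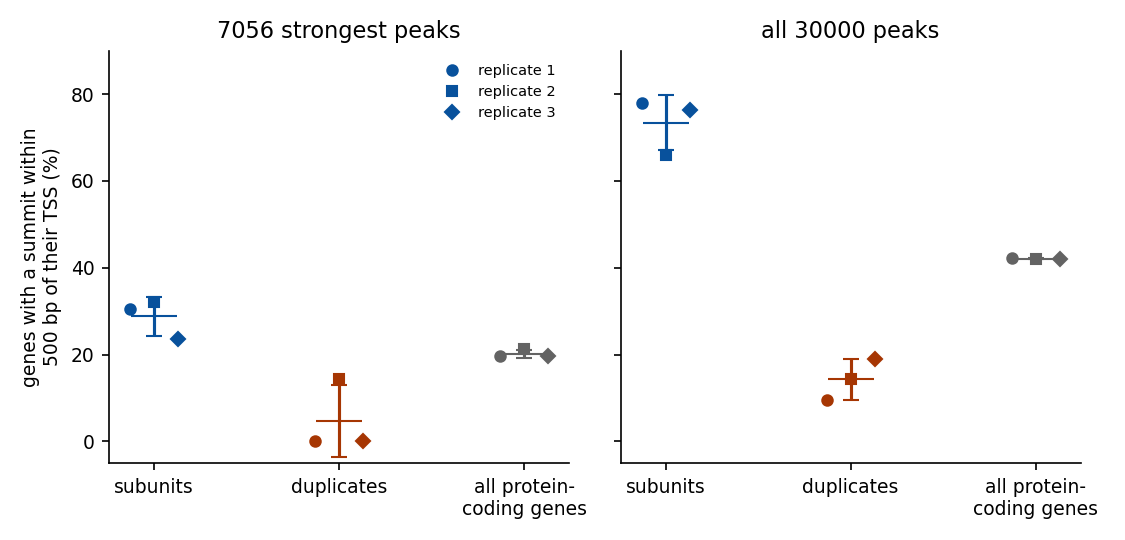
Percent of genes with a promoter summit in each replicate, for the 7056 strongest peaks and for all 30000 peaks. Points are replicates, and bars show the mean and SD of subunit genes, duplicates and all protein-coding genes. In the full lists subunit genes reached 66.1% to 78.0% and duplicates 9.52% to 19.0%.

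The promoter summits of subunit genes lay almost on the start site. Of the 20, 19 were within 100 bp of the TSS, against 44.6% of all 3317 IDR promoter summits. Their median distance without sign was 39.5 bp, where that of all promoter summits was 115 bp. Each summit goes to its nearest TSS, so a second start site close by limits how far off it can lie. Another protein-coding TSS lay within 500 bp of 17 of the 20, against 33.3% of all promoter summits. The part of this rule in the short distances was not tested. The 20 summits ran from 191 bp upstream (signed distance -191) to 87 bp downstream. Of them 14 were upstream and 6 downstream, near the 65.6% upstream among all promoter summits. The median signed distance was -24 bp, against -60 bp for all promoter summits. Below the IDR threshold the pooled list held 32 further promoter summits of subunit genes, 23 of them within 100 bp, against 44.6% of the 5435 such summits of all genes. The 2 such summits of duplicates were both farther than 100 bp. The subunit summits were weaker than most, with a median rank of 4114.5 in the IDR list, where all promoter summits had 3255 and rank 1 is the strongest. Peak widths had the same median, 436 bp, and the median G+C content of the 200 bp around the summit was 35.8%, against 39.0% for all promoter summits.

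**Figure D3:**
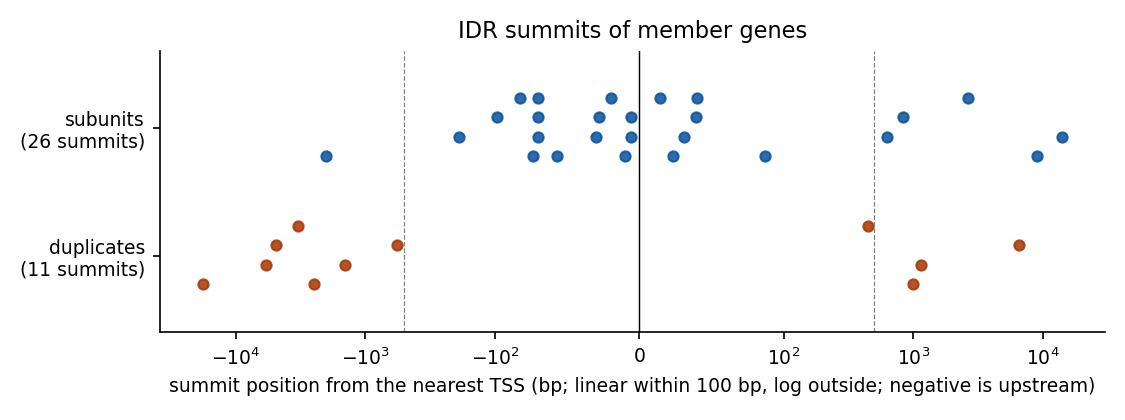
Signed distance in bp from the nearest TSS to every IDR summit of member genes, negative upstream. The rows hold the 26 summits of subunit genes and the 11 of duplicates. The axis is linear within 100 bp and logarithmic outside, and dashed lines mark 500 bp to each side. The 20 promoter summits of subunit genes lie between -191 and 87 bp.

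Most of these start sites are shared with a neighbour. A gene was called head-to-head when another protein-coding gene started within 500 bp upstream of it on the opposite strand. That was so for 35 of 59 subunit genes (59.3%), 3 of 21 duplicates (14.3%) and 27.4% of all genes. IDR promoter summits stood at 17 of 35 head-to-head subunit genes (48.6%) and at 3 of the other 24 (12.5%), and the same shares over all genes were 29.2% and 17%. In the pooled list this order was not seen for subunit genes, with 25 of 35 (71.4%) against 19 of 24 (79.2%), while over all genes it was 50.8% against 37.5%. Without replicates 1, 2 and 3 in turn, the 17 head-to-head genes became 7, 5 and 10. All subunit genes with a promoter summit fell from 20 to 9, 7 and 11 in the same settings. The share of head-to-head genes at large was not computed there. Of the 20 promoter summits 17 lay within 500 bp of the TSS of a further protein-coding gene, against 33.3% of all promoter summits, so these data do not say which gene of the pair a summit belongs to.

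**Figure D4:**
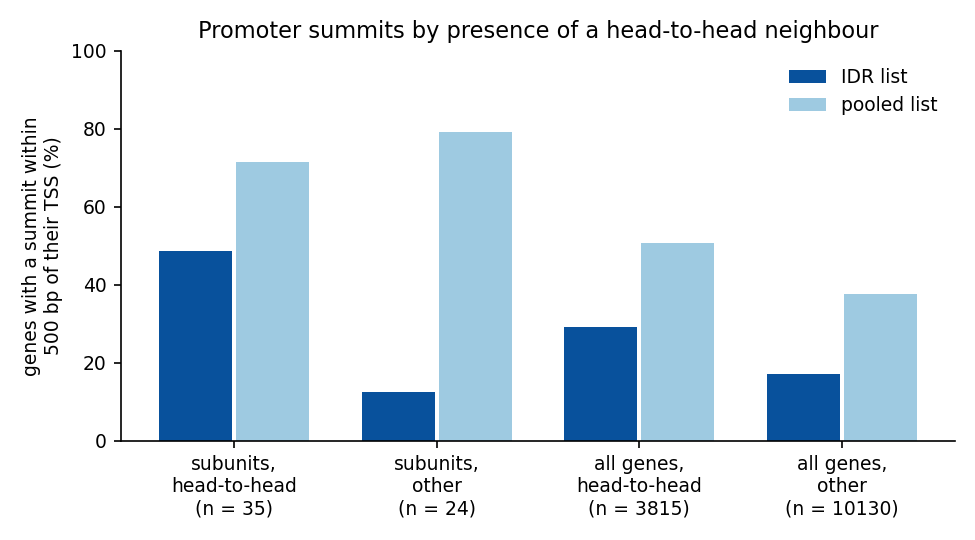
Percent of genes with a promoter summit in the IDR and pooled lists, split by whether the gene starts head-to-head with another. In the IDR list 48.6% of head-to-head subunit genes and 12.5% of the other subunit genes had one.

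Among complex I genes, ND-42, which encodes an accessory subunit, had the strongest promoter summit, at rank 1812 of the IDR list and 74 bp upstream of its TSS. The summit is 155 bp from the start of Cchl, which encodes the enzyme that attaches heme to cytochrome c. Its matched peak, the peak with a summit within 100 bp, ranked 1245 in replicate 2 and 4156 in replicate 3, and replicate 1 had none. The best replicate 1 summit of ND-42, beyond those 100 bp, lay 28 bp downstream of its TSS at rank 15163. ND-51 encodes the flavoprotein that takes electrons from NADH. Its summit ranked 2006 in the IDR list, 99 bp upstream, and 3359, 1324 and 5096 in replicates 1, 2 and 3. The summit of ND-SGDH, 83 bp upstream in the intergenic space beside RhoGAP68F, ranked 2637 and then 5078, 1539 and 11255 in the replicates. All of these were best in replicate 2. ND-15 was the reverse. Its summit, 10 bp upstream at rank 2676, ranked 1575 and 1773 in replicates 1 and 3 and 8087 in replicate 2.

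The core subunit ND-24, partner of ND-51 in the NADH-binding module, had a summit 87 bp downstream at rank 3669, and 4841, 2759 and 5974 in the replicates. The summit of ND-B17.2, 6 bp upstream at rank 4020, ranked 5273, 3256 and 8257, and that of ND-MNLL, 70 bp upstream at rank 4137, ranked 11877, 3341 and 5796. Both are accessory subunits whose best rank was in replicate 2. At the low end stood ND-ASHI, ND-B8 and ND-30. ND-ASHI starts beside Fum1, which encodes fumarase of the citric acid cycle, and its summit 30 bp upstream at rank 6373 ranked 6707, 5191 and 15907. ND-B8 (rank 6721, 70 bp upstream) ranked 6440 and 7905 in replicates 1 and 3 and had no matched peak in replicate 2. ND-30, a core subunit, ranked 6816, with 17984 and 3219 in replicates 1 and 2 and no matched peak in replicate 3. ND-B18 (rank 4970) and ND-PDSW (rank 5734) made up the 12.

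ND-B14.7, an accessory membrane subunit, had 3 IDR summits, none at its promoter. They lay 13934, 2631 and 8929 bp downstream of its TSS at ranks 764, 3784 and 5301, and the strongest ranked 389, 3134 and 403 in the replicates. The nearest TSS is a weak guide at such distances.

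In complex III the core proteins UQCR-C1 and UQCR-C2 had promoter summits 14 and 39 bp downstream of their start sites, at ranks 4092 and 5653. UQCR-C1 ranked 4907, 4811 and 3972 in the replicates and UQCR-C2 6474, 6463 and 5616, the steadiest of the subunit genes named here. In complex IV, COX6B, a subunit on the side of the intermembrane space, had a summit 23 bp downstream at rank 2473, and 2216, 2741 and 1776 in the replicates. COX7B (57 bp upstream, rank 3092) ranked 1984 and 4537 in replicates 2 and 3 and had no peak matched within 100 bp in replicate 1. The best replicate 1 summit of COX7B lay 58 bp downstream of its TSS at rank 6186, so the gene had a promoter summit there too. COX7A (20 bp upstream, rank 6057), a small subunit that starts beside Arl2, ranked 7573, 10505 and 5053. COX7C had no promoter summit but one 2019 bp upstream of its TSS, in an intron of oys, at rank 2407, with 2688, 2267 and 3062 in the replicates.

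In complex V, ATPsynC, which encodes the subunit of the rotating c-ring, had 3 IDR summits, each measured from the nearest of its start sites. The strongest member summit of all subunit genes lay 826 bp downstream of the start site at 31219051, in its own intron (chromosome arm 3R, 31218225), at rank 758, with 466, 1800 and 495 in the replicates. A further summit in the same peak interval lay 625 bp downstream of that start site, at rank 3318. Its promoter summit, 40 bp downstream of the other start site at 31219559, ranked 1626 in the IDR list and 762, 11721 and 673 in the replicates, the widest gap between replicate 2 and the others among promoter summits matched in all 3. ATPsynF, 28 bp upstream, ranked 4844, and 4312, 4814 and 12371 in the replicates. ATPsynO encodes the stalk protein that ties the catalytic head to the stator, and its summit 6 bp upstream ranked 5883, and 9496, 6077 and 5618.

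**Figure D5:**
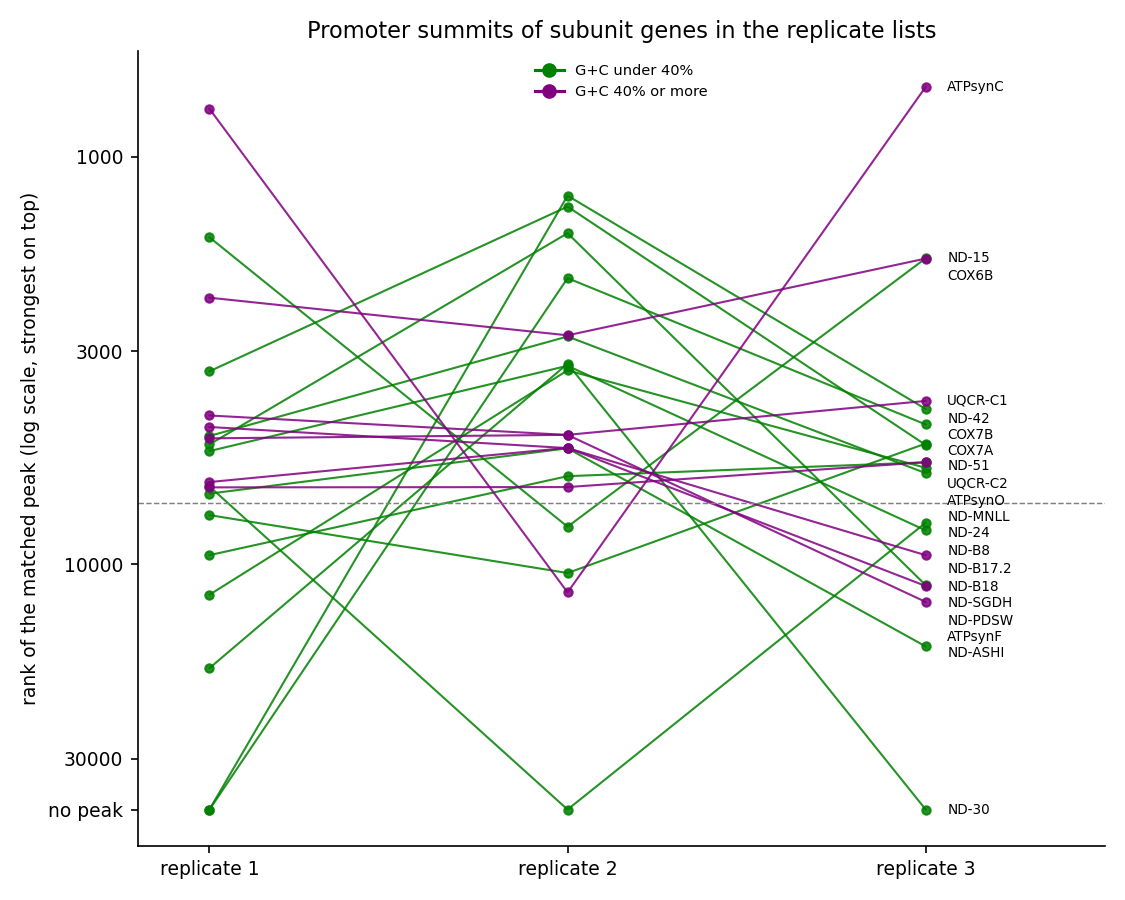
Rank of the matched peak in each replicate list (log axis, strongest on top) for the 20 promoter summits of subunit genes, coloured by G+C content; the dashed line is rank 7056 and labels are spread to be legible. Many A+T-rich sites rise in replicate 2, while ATPsynC falls from ranks 762 and 673 to 11721.

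At these sites, as at promoter summits at large, the rank in replicate 2 relative to the other replicates went with base composition. Matched peaks were found for 18, 19 and 19 of the 20 summits in replicates 1, 2 and 3, and for 16 in all 3. Of the 16, 9 had a G+C content under 40%, a limit set after the values were seen, and 6 of these ranked best in replicate 2, while 1 of the 7 richer sites did. Over all 2624 promoter summits matched in all 3 replicates the counts were 1004 of 1381 and 212 of 1243. Spearman's rho between G+C content and the log2 rank ratio in favour of replicate 2 was -0.738 over the 16 subunit summits and -0.656 over all 2624, given as a description since the sites share their 3 libraries. The median ranks of the 16 were 4992.5, 4995.5 and 5707, all weaker than the 3053, 3080.5 and 3193 of all promoter summits. The part of library preparation in this relation was not tested.

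The duplicates with IDR summits had most of them farther than 500 bp from their start sites. Of their 11 summits 0 lay within 100 bp of the TSS and 1 within 500 bp, that of COX4L, 444 bp downstream in its coding exon at rank 5591, with 7957, 4974 and 8270 in the replicates. COX7AL2 had 5 summits. From its start site at 2197912, 3 of them lay upstream, the farthest at 3321 bp, and 1 lay 1151 bp downstream. The other, at rank 4676, lay in its intron 569 bp upstream of a second start site at 2193010, with 3179, 14471 and 2589 in the replicates. The strongest, at rank 586 (chromosome arm 2L, 2201233), was the best of any member and ranked 981, 412 and 930 in the replicates. UQCR-6.4L had a summit 989 bp downstream in an intron of Mipp1, at rank 2050, with 2104, 2306 and 2631. The gene itself lies 16824 bp from UQCR-C2. ND-20L had a summit at rank 3799, 6555 bp away, with 6196, 3138 and 6717. ATPsynCF6L had summits 4871 and 5879 bp upstream at ranks 4291 and 5383, both in an intron of Con. The first ranked 4084, 9246 and 1972 in the replicates and the second 3128, 11348 and 3706, each lowest in replicate 2. ND-B14.5AL had a summit 17952 bp upstream, in an intron of CG14459, at rank 6537, with 2749, 17412 and 9444. Of the 11, 6 were in introns and 4 intergenic. Of the subunit genes' 26 summits 19 lay within 100 bp of the TSS. Of all 7056 IDR summits, 1479 lay within 100 bp and 3317 within 500 bp.

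In close pairs a subunit gene lies beside its duplicate. COX5B and COX5BL lie 123 bp apart, COX7C and COX7CL 282 bp, and COX7A and COX7AL 2626 bp. COX7A had a promoter summit in the IDR list, and COX7AL had no summit in any list. COX5B had no IDR summit, and its best pooled summit stood 42 bp upstream (signed distance -42) at rank 7787, while COX5BL had none in any list. COX7C had only its distant IDR summit, and COX7CL had a summit in the list of replicate 3 alone, 457 bp downstream at rank 18523.

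Short words were searched for, in both orientations, up to 50 bp from each of the 20 subunit promoter summits. Not all of them are known from promoters of such genes. The INSM1 core is that of a vertebrate relative of Nerfin-1, and the Scalloped word is that of the factor Scalloped. The DRE word TATCGATA, bound by the factor DREF, was at 1 (5%, COX7A), against 3.11% of all promoter summits. The Scalloped word GGAATG was at 1 (5%, ND-B8), against 6.24%. The E-box CACGTG, the Motif 1 core GGTCACAC, the Ewg word GCGCANGC, the nuclear respiratory gene element and the INSM1 core CAGGGGG were at 0 of the 20, where 1.54%, 2.32%, 1.33%, 0.362% and 0.392% of all promoter summits held them. None of these words contains another. Within 100 bp the Motif 1 core was at 3 of the 20 (15.0%), against 5.34% of all promoter summits, so for this word the order of the shares turned with the window. The DRE word was then at 2 (10%), against 7.08%, and the Scalloped word at 1 (5.0%), against 10.6%, while the other 4 words were still at 0. In whole promoters, from 250 bases before to 50 after the TSS, the Motif 1 core was in 3 of 20 subunit genes with an IDR promoter summit (15%), 11 of 39 without (28.2%), 1 of 21 duplicates (4.76%) and 7.7% of all genes. The DRE word was in 15%, 15.4%, 0 and 9.36% of the same groups. A word match is a description of the letters and not of a bound site.

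Other genes of mitochondrial energy metabolism were counted in the same way, against 28.6% of all genes with an IDR summit and 20.3% with a promoter summit. Of 16 oxidative phosphorylation genes outside the naming rule, 5 had one (31.2%), 3 at the promoter. The 4 genes of succinate dehydrogenase, complex II, had none. Cyt-c-p, the somatic cytochrome c, had its best summit at rank 862, 949 bp downstream of its TSS, and a promoter summit at rank 5736. The gene blw, which encodes the alpha subunit of ATP synthase, had its summit at rank 2876 and 318 bp upstream, with 7989, 1383 and 2960 in the replicates. Of 9 assembly and quality-control genes, 2 had one (22.2%), among them CIA30, a complex I assembly factor, at rank 347 and 107 bp upstream, with 550, 203 and 752. Of 15 citric acid cycle and pyruvate dehydrogenase genes 7 had one (46.7%), all at the promoter. They were led by Idh3g, a subunit of isocitrate dehydrogenase, at rank 252 and 108 bp upstream, with 509, 164 and 373, followed by kdn, the citrate synthase gene, at rank 992 and Fum1 at rank 1198. Of 12 genes of mitochondrial genome expression 2 had one (16.7%), mTerf5 and mtSSB. Of 10 nuclear regulators of mitochondrial genes 7 had one (70.0%), 2 at the promoter, trx and ERR. The others were srl, the fly relative of PGC-1, ewg, Ets97D, Myc and crol, and none stood at Dref, Max or M1BP.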

How the data were processed

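Peak lists were deposited on the dm6 build in narrowPeak form, 1 per replicate, 1 pooled and 1 thresholded by IDR, each called against a control, per the file headers. The sources used here name no aligner, peak caller or IDR threshold. Column 7 holds the signal of each peak as deposited by the authors, whose normalization is not stated, and served only to rank peaks within a list. Summits came from the offsets in column 10, and the deposited −log10 q-values were not used to order peaks. Read numbers are not in the peak lists, and sequencing depth is therefore unknown.

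Python 3.11.15 with pandas 2.3.3, numpy 2.4.6 and scipy 1.17.1 was used, with genes from Ensembl release 115 (BDGP6.54). Each summit went to the nearest protein-coding TSS. Where start sites on both sides were equally far, the one at the lower coordinate was taken. Among genes that share a TSS position, the lower gene identifier was taken. No test was run, since there is 1 group, and counts stand beside those of all genes. Assignment was tested on simulated data. Members and lists were chosen with earlier results of these data known. Named with replicate values were the 12 strongest members, those with 2 or more IDR summits, the 4 weakest, the 4 widest spreads over replicates in each direction and duplicates with an IDR summit. UQCR-C1, UQCR-C2, ATPsynF, ATPsynO and genes outside the naming rule were added after their values were seen. Ndufaf1, SdhAF4 and tam were not matched.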

Additional observations from a re-analysis of the deposited data

How the results depend on the processing

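The 28 members with an IDR summit became 11 among the 3528 strongest IDR peaks, against 17.4% of all genes, and 54 in the pooled list, against 51.8%. They became 15 by gene body, without a share of all genes to set beside it, and 13 to 17 when 1 replicate was left out. The 21 with a promoter summit became 7 to 11 without a replicate, where all genes had 12.1% to 13.9%. The 17 head-to-head subunit genes became 5 to 10, without a share of head-to-head genes at large to set beside it. The 12 members found in all 3 replicates (15.0%, against 19.0% of all genes) became 42 of 80 with the full lists, where 5916 of all 13945 genes had a summit in each. With the 3528 strongest peaks of each they became 6, without a share of all genes to set beside it. The 6 duplicates became 1 when every TSS within 500 bp was counted and 3 to 4 without a replicate. The 1 summit with the DRE word became 3 within 100 bp and 0 without any replicate. Median ranks of the best summit over these 42 members were 8140, 5937 and 7820.5 in replicates 1, 2 and 3. Over the 5916 genes they were 5342.5, 5098 and 5327.5. The medians of members became 4721.5, 4076 and 5617 over the 24 with an IDR summit matched in each replicate. Leaving out a replicate requires a match in both others, so fewer peaks remain, and for the other settings the cause was not tested. The 44 subunit genes with a pooled promoter summit, an analysis added after seeing the data, ranged from 31 to 49 over its alternatives. No paired analysis was possible because there is 1 group.

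Limits are that replicate lists end at 30000 peaks, that depth and the control are not known here, that nearest-TSS assignment cannot separate head-to-head genes, and that the background holds genes of unknown activity.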
